A study of Mus musculus with 2 samples.

Results

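The locus described here is the stretch of mouse chromosome 13 with the most transcript lines on 1 strand in a pooled transcript list of embryonic stem cells. Its members are the plus-strand lines that overlap chr13:98204925-98285757 on the mm9 genome, 783 of the 110003 lines in the list. The region was chosen by that number of lines, so the number is a description and was not tested. The study sequenced polyadenylated RNA and, separately, total RNA depleted of ribosomal RNA. Each kind of RNA was taken from the pluripotent V6.5 line, cultured over irradiated embryonic fibroblasts, and gave 1 library. The deposited list is a single pool with no value per library, so the 2 kinds of RNA cannot be compared, no replicate error exists, feeder RNA cannot be separated, and the depth behind a line is unknown. Each line gives a strand, exon positions and a score, and its name starts with WHITEHEAD, BROAD, U or FT. What these prefixes stand for is not stated in the labels.

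By structure the locus corresponded to Lncenc1 (ENSMUSG00000078952.9) and, at its 3′ end, to Gm2379 (ENSMUSG00000114926.1), both annotated as long intergenic noncoding RNA genes on the plus strand. As background, long noncoding RNAs are transcribed and spliced like messenger RNAs but are not thought to be translated, and many are read from several starts and spliced in several ways. Lncenc1 is known as an RNA abundant in mouse embryonic stem cells, where it has been linked to the pluripotent state and to expression of glycolysis genes. In GENCODE M21, on GRCm38, Lncenc1 lies at chr13:97434970-97497007 with 3 transcripts and Gm2379 at chr13:97511204-97515730 with 1 transcript. The 2 genes are separate there.

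Of the 6 annotated introns of both genes, 4 had a pool intron of exactly their length. No other annotated gene on the plus strand of chromosome 13 has an intron of any of these 4 lengths. The difference between mm9 and GRCm38 positions was the same for all 4 (769955 bp). The 59312-bp intron of the 2-exon Lncenc1 transcript was present in 2 U lines. The 171-bp intron of the first 3-exon transcript was present in 131 BROAD lines, and the 6146-bp intron of the other in 44 BROAD lines. The 4064-bp intron of Gm2379 was present in 1 U line. Annotated introns of 11372 bp and 108 bp were not found in the pool at this locus. In a single line, of U name, the whole exon and intron structure of an annotated transcript was present, with exons of 123 and 2603 nt. The other 39 of the 43 distinct introns of the locus had no counterpart of the same length in the annotation of either gene.

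The annotated exons that tie the pool lines to these genes are shown next, read from the GENCODE M21 transcripts (GRCm38, plus strand, 5′ to 3′). Capitals mark the 3 bases of the exon that adjoin each splice site. The first exon of the 2-exon Lncenc1 transcript, chr13:97434970-97435092, has the length of the first exon of 2 U lines.
Lncenc1 distal first exon: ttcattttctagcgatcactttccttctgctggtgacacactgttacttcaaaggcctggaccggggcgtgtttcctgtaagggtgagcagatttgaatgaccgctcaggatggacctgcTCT
The first exon of a 3-exon transcript, chr13:97482701-97482777, is 77 nt long, and the BROAD first exon before the 171-bp intron is 96 nt long.
Lncenc1 proximal first exon: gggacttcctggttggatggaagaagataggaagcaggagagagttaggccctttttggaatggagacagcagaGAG
The 84-nt exon after that intron, chr13:97482949-97483032, has the length of the second exon of 87 BROAD lines.
Lncenc1 84-nt exon: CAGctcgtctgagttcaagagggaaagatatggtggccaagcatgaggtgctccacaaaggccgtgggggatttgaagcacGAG
The 170-nt exon after the 6146-bp intron, chr13:97489179-97489348, is an exon that pool lines include or skip.
Lncenc1 170-nt exon: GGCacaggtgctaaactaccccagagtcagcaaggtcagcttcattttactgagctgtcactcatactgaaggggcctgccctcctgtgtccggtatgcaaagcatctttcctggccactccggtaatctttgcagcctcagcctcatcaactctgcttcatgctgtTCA
The last exon, which begins at an acceptor that most lines of the locus use, is shown by its first 60 bases, chr13:97494405-97494464.
Lncenc1 last exon, start: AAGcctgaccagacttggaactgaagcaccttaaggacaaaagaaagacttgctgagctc
The first exon of Gm2379, chr13:97511204-97511434, has the length of the first exon of 1 U line.
Gm2379 first exon: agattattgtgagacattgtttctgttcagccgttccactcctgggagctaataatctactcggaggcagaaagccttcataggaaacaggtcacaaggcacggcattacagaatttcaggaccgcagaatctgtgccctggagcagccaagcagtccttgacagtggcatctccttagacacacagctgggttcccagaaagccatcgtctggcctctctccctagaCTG

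The lines of the locus came mostly from WHITEHEAD names. There were 590 WHITEHEAD lines (75.4% of the members), 180 BROAD lines (23.0%), 12 U lines and 1 FT line. All WHITEHEAD and BROAD lines were spliced, against 5 of the 12 U lines, and the FT line had a single exon. In the pool the median number of exons was 3 for WHITEHEAD, 2 for BROAD, 1 for U and 1 for FT lines. This difference between prefixes is thus not shown to be particular to the locus. The locus held 17.6% of all WHITEHEAD lines of the pool and 2.34% of all BROAD lines, but 1.20% of the distinct WHITEHEAD introns and 0.312% of the distinct BROAD introns. It thus carried many lines on few introns. The 783 lines shared 43 distinct introns, or 18.2 lines per intron. The loci with the next highest numbers of lines were on the minus strand of chromosome X (480 lines, 97 introns, 4.95 lines per intron), the plus strand of chromosome 15 (284 lines, 41 introns, 6.93 lines per intron) and the plus strand of chromosome 1 (270 lines, 25 introns, 10.8 lines per intron). Across the 15998 loci of the pool with an intron, the median was 1 line and 1 intron.

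Lines of the locus were long and had many exons. WHITEHEAD lines had 2 to 9 exons (median 8), against a median of 3 for WHITEHEAD lines of the whole pool. BROAD lines had 3 to 15 exons (median 11), against a pool median of 2, and no BROAD line of the pool had more than 15. The summed exon length was 260 to 9617 nt (median 3915.5 nt) for WHITEHEAD lines of the locus, against a median of 743.5 nt in the pool. For BROAD lines it was 529 to 16835 nt (median 9585.5 nt) in the locus, against a median of 355 nt in the pool. The 15-exon line runs from 98252637 to 98285625. It includes the 84-nt and 170-nt Lncenc1 exons and, just before its last exon, a 44-nt exon (98284480 to 98284523).

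**Figure D1:**
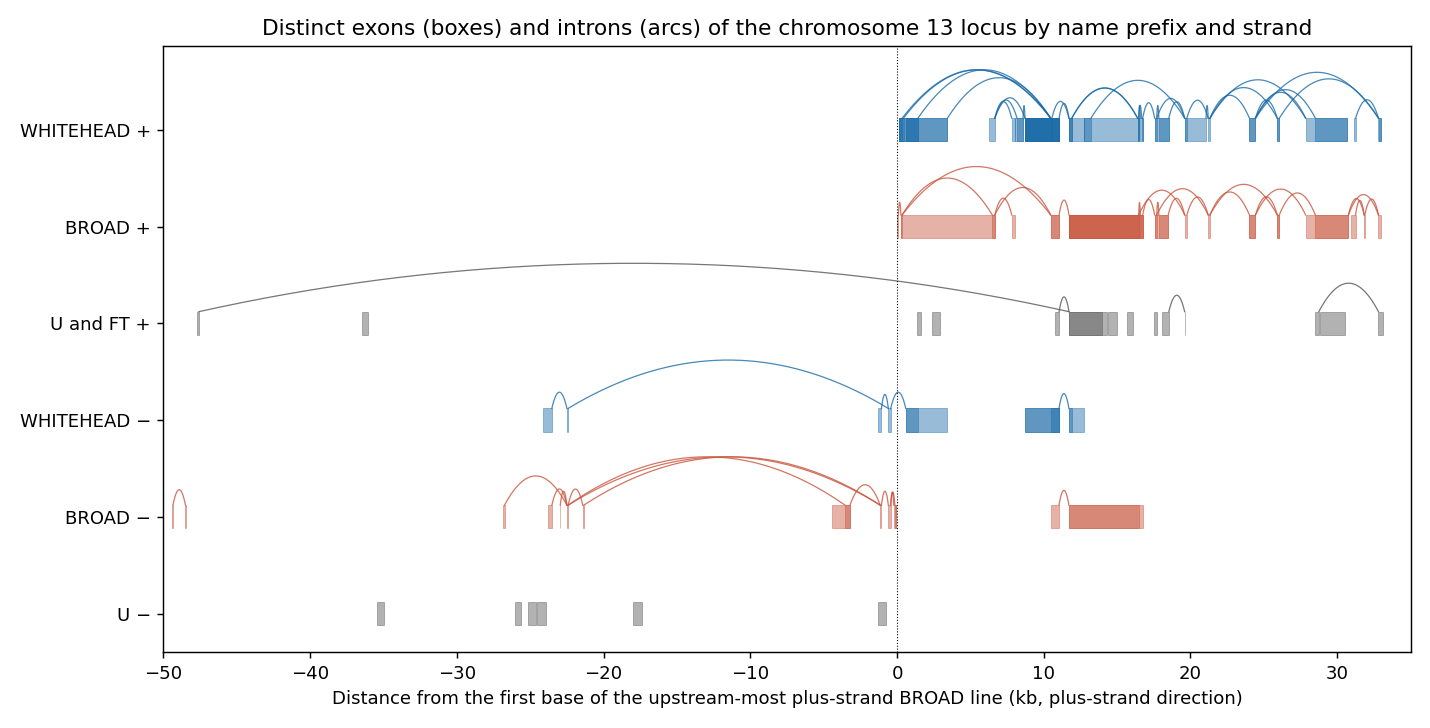
Distinct exons (boxes) and introns (arcs) of the locus by name prefix and strand, plotted by distance in kb from position 98252637, the first base of the upstream-most plus-strand BROAD line. Darker boxes are overlapping exons that differ in an edge; WHITEHEAD and BROAD lines on the plus strand fill the right part of the map, and 2 U lines reach it from the far left across the 59312-bp intron.

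Lines began at 24 distinct positions and ended at 21. Of the BROAD lines 131 (72.8%) began at 98252637, with the 96-nt first exon described above, and 42 (23.3%) at 98264353. The remaining 7 BROAD lines began at 98276655, 98278535 or 98283579. WHITEHEAD lines were spread over 9 starts. The most frequent was 98252791 with 204 lines (34.6%), 154 bp downstream of the BROAD start, followed by 98258934 (87 lines), 98253235 (86 lines), 98265415 (84 lines) and 98264353 (72 lines). Position 98264353 was the single start that both prefixes shared, and it lies 7 bp before the first base of the Lncenc1 last exon (98264360). The distal Lncenc1 start at 98204925 was present in 2 U lines and in no WHITEHEAD or BROAD line.

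WHITEHEAD lines that began upstream in Lncenc1 did not reach the last exon at the Gm2379 end, whereas nearly all such BROAD lines did. Of 428 WHITEHEAD lines that began before 98264353, 0 contained the acceptor at 98285453, and the farthest ended at 98273967. Of 131 BROAD lines that began before 98264353, 126 contained it and ended at 98285625. This acceptor is the one that the U line matching Gm2379 also uses, where it follows the 4064-bp intron. The most frequent WHITEHEAD 3′ end was 98273967 (368 lines). BROAD lines and 156 other WHITEHEAD lines spliced on from the exon that ends there. The next WHITEHEAD ends by number of lines were 98285631 (70 lines), 98283294 (68 lines), 98271165 (32 lines) and 98277071 (24 lines). In BROAD lines 175 of 180 ended at 98285625, 3 at 98263678 and 2 at 98260682. The downstream-most ends of WHITEHEAD and BROAD lines differed by 6 bp.

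WHITEHEAD and BROAD lines that began before the donor at 98264552 continued downstream in different ways. All 472 WHITEHEAD lines that began before the donor at 98264552 and extended past 98269032 did so by splicing, from that donor to acceptors 98269032 or 98269042, which are 10 bp apart. All 168 BROAD lines that crossed did so within a single exon, of 4753 to 5030 nt, with no intron there. Unspliced sequence across this stretch was not limited to BROAD lines, since 72 WHITEHEAD lines began at 98265415, past that donor, with a 3698-nt exon that runs to 98269112. The U line with the annotated structure ended at 98266962, inside that long BROAD exon and inside the WHITEHEAD introns.

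Introns were shared between the prefixes in part, while no chain of introns was. Of the 43 distinct introns, 31 were found under 1 prefix, 11 under 2 and 1 under 3, the last being the 674-bp intron (98263686 to 98264359) that ends at the acceptor of the Lncenc1 last exon. WHITEHEAD and BROAD lines shared 11 introns, which is 36.7% of the 30 WHITEHEAD introns and 50% of the 22 BROAD introns. In the whole pool 41.0% of WHITEHEAD introns were also BROAD introns, and 14.5% of BROAD introns were also WHITEHEAD introns. The spliced lines formed 704 distinct intron chains, 520 in WHITEHEAD, 180 in BROAD and 4 in U lines, and 0 chains were common to WHITEHEAD and BROAD. Of the 704 chains 633 belonged to 1 line and 152 were consecutive runs within a longer chain. The most lines any chain had was 2.

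The 43 introns used 27 donors and 23 acceptors. Several acceptors followed 9 of the donors, and several donors preceded 9 of the acceptors. The acceptor of the Lncenc1 last exon (98264359) was used by 418 WHITEHEAD lines (70.8%), 126 BROAD lines (70%) and 3 U lines. There were 10 cassette exons, that is exons which some lines include and others skip between the same neighbouring splice sites. They were counted over all prefixes together, so for some the lines that include and those that skip differ in prefix. The 641-nt exon (98270483 to 98271123), for example, was internal in 48 BROAD lines and no WHITEHEAD line. The intron that skips it (98270341 to 98272243) was in 192 lines, all WHITEHEAD. The 170-nt Lncenc1 exon was an internal exon in 44 BROAD lines. The 414-nt exon (98276658 to 98277071) was internal in 56 WHITEHEAD and 112 BROAD lines, and the 141-nt exon (98278556 to 98278696) in 53 and 114. The introns that skip the 141-nt exon in this sense were in WHITEHEAD lines only. For 6 introns an exon of other lines spanned the whole intron. The 6146-bp Lncenc1 intron was spanned by an exon in 44 BROAD lines and the 142-bp intron (98270341 to 98270482) in 192 WHITEHEAD and 48 BROAD lines.

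BROAD lines listed every combination of their alternatives, and WHITEHEAD lines listed a part. When each distinct exon was taken as a node and each observed junction between exons as a link, the 26 exons and 42 junctions of BROAD lines allowed 180 paths from a listed first exon to a listed last exon, and the 180 BROAD lines were these paths, 100% of them. The 43 exons and 80 junctions of WHITEHEAD lines allowed 3872 such paths, of which 590 (15.2%) were listed. Outside the locus most groups listed the full set. Of 144 BROAD groups of lines joined by shared introns, with at least 3 introns and 3 lines, 143 listed every path (99.3%), and these held 77.8% of the lines in such groups. Of 103 such WHITEHEAD groups 100 did (97.1%), with 92.8% of the lines. WHITEHEAD lines from each of the 4 first exons that begin at 98252791 were equally many, 51 each. The number of BROAD lines at the locus thus equals the number of combinations that its junctions allow.

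The deposited scores had a simple structure as well. Each score was exactly the sum of 1 value per intron of the line, within a tolerance of 1e-06, for all 590 WHITEHEAD and all 180 BROAD lines of the locus. These sums have 28 independent parts in WHITEHEAD and 16 in BROAD lines, so 562 WHITEHEAD scores and 164 BROAD scores were determined by the rest. The same held across the pool, in all 160 WHITEHEAD and all 190 BROAD groups with more lines than independent parts. What the value of an intron counts is not stated in the labels, and the 2 prefixes may be on different scales, so values are compared within a prefix. The value was fixed by the scores for 22 of 30 WHITEHEAD introns and for 5 of 22 BROAD introns. For the others only the range that non-negative values allow is known. U scores were 0 and the FT score was 1000, which is both the median and the highest FT score of the pool, so they carry no such information.

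The highest fixed values stood at the upstream end of the locus, on a few of its introns. In WHITEHEAD lines the 10123-bp intron from the donor of the 84-nt Lncenc1 exon (98252988 to 98263110) had a value of 402. The 674-bp intron that follows it had 374. The other WHITEHEAD introns that ended at or before 98264359 had values between 2 and 32. In BROAD lines the 674-bp intron had 552, and the 171-bp and 10123-bp introns together had 638. The 10123-bp and 674-bp introns gave 776 of the highest WHITEHEAD score of 963 (80.6%). With the 171-bp intron they gave 1190 of the highest BROAD score of 1418 (83.9%). Taken alone, the BROAD value of the 10123-bp intron lay between 19 and 638. That of the 1153-bp intron (98259304 to 98260456) lay between 89 and 708, and that of the 3807-bp intron (98259304 to 98263110) between 0 and 619. The 10123-bp intron is thus not shown to lead in BROAD lines. The 2 BROAD lines with the 1153-bp intron ended at 98260682 and had a median score of 711. The annotated 6146-bp intron, which leads to the 170-nt exon, had a value of 6 in BROAD lines.

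Further downstream no WHITEHEAD value reached those of the 10123-bp and 674-bp introns. Some exceeded the values of all other upstream WHITEHEAD introns. Against the 10123-bp and 674-bp introns, WHITEHEAD junctions with a donor inside the Lncenc1 last exon were low, as were several other upstream WHITEHEAD junctions. In both prefixes the junctions into the last exon of the locus were low as well. The WHITEHEAD introns from the donor at 98264552 had values of 6 (to 98269032) and 3 (to 98269042). The 674-bp intron that enters that exon had 374. The 6388-bp WHITEHEAD intron (98265856 to 98272243) had between 0 and 14. BROAD lines had no donor inside that exon and ran past it in their long exon. The introns after the long BROAD exon had 4 (110 bp), 0 to 88 (3131 bp) and 0 to 70 (817 bp), so not all are known to be low. Between these introns and the last exon of the locus, values were mixed. The 142-bp intron had 14 in WHITEHEAD and 48 in BROAD lines, the 2690-bp intron (98273968 to 98276657) had 106 in WHITEHEAD lines and between 0 and 70 in BROAD lines, and the 1484-bp intron (98277072 to 98278555) had 54 in WHITEHEAD and 34 in BROAD lines. Other introns of the same stretch were lower. The 110-bp intron (98269113 to 98269222) had 4 in BROAD lines, and in WHITEHEAD lines the 4588-bp, 6524-bp, 3420-bp and 4078-bp introns had values of 11, 3, 1 and 4, in that order. Introns into the last exon at 98285454 had a value of 3 each in WHITEHEAD lines (8382 bp and 6757 bp). In BROAD lines they lay between 0 and 6 (2045 bp) and between 0 and 4 (930 bp). The join between Lncenc1 exons and the Gm2379 last exon thus rested, in both prefixes, on values low against the highest at the upstream end. For scale, the median line score in the pool was 4 for BROAD lines (median 2 exons) and 19 for WHITEHEAD lines (median 3 exons).

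**Figure D2:**
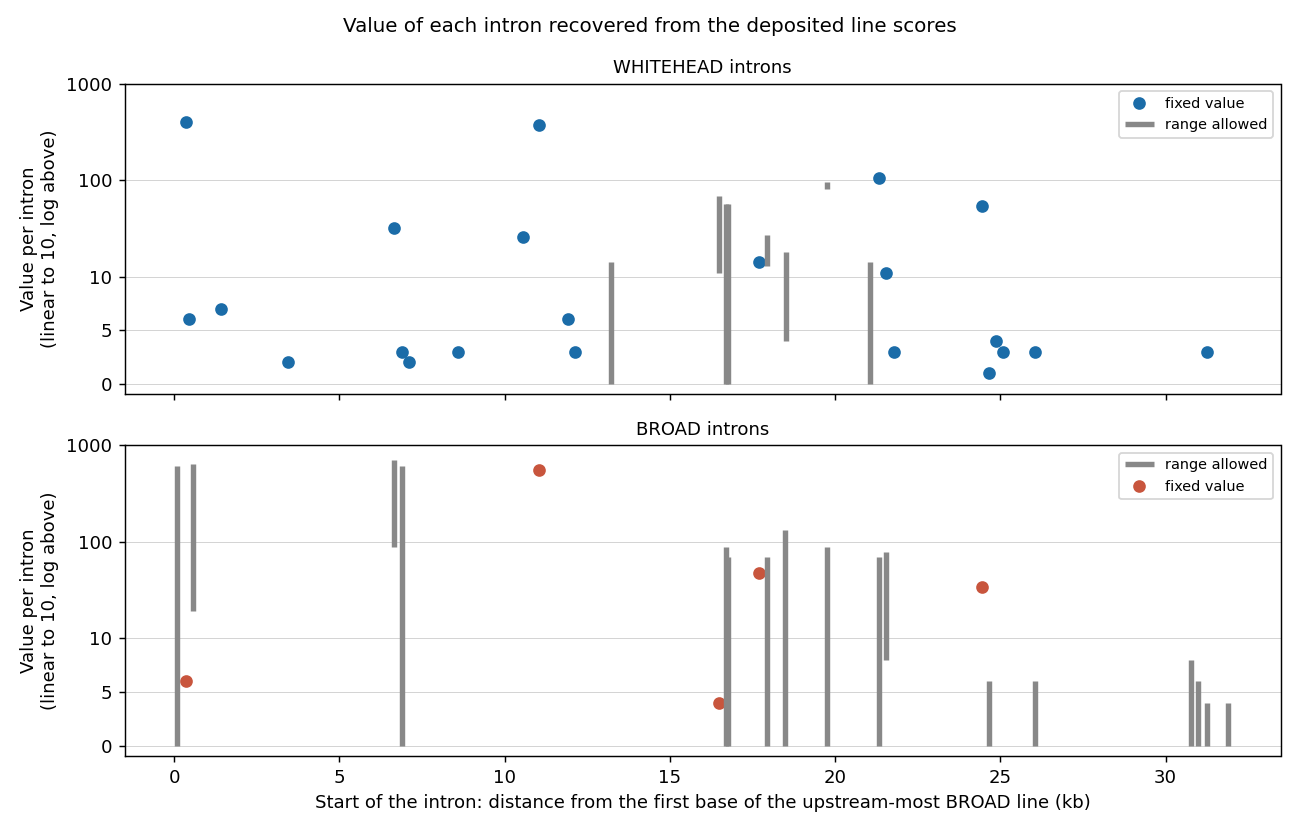
Value of each intron against the distance of its start in kb from position 98252637, for WHITEHEAD (top) and BROAD (bottom) introns, on an axis that is linear to 10 and logarithmic above. Points are values fixed by the scores and grey bars the range that non-negative values allow; the highest fixed values are 402 and 374 for WHITEHEAD and 552 for BROAD introns, all in the upstream part.

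The value of an intron and the number of lines that contain it often differed in rank. Over the 22 WHITEHEAD introns with a fixed value, Spearman's rho between value and number of lines was 0.17, and over the 5 such BROAD introns it was 0.30, both given as descriptions since these introns share lines. At the acceptor 98263110 the 10123-bp intron had 402 of a summed value of 417 (96.4%) but 17.6% of the lines. The introns from donors 98253081, 98254064 and 98256074 to the same acceptor had values of 6, 7 and 2 and together the other lines, 51, 94 and 94. At the acceptor of the Lncenc1 last exon the 674-bp intron had 374 of 400 (93.5%) and the 1169-bp intron (98263191 to 98264359) had 26, with 209 lines each. At the donor 98259304 the 1153-bp intron had a value of 32 in 1 line, whereas the 1515-bp and 2061-bp introns had 3 and 2 in 43 lines each. At the donor 98273968 value and lines had the same leading intron, the 2690-bp one, with 88.3% of the value and 80 of 156 lines. Introns with a fixed value of at most 7 numbered 14 in WHITEHEAD lines, and 586 of the 590 lines (99.3%) contained at least 1 of them. In BROAD lines 7 introns had a fixed value or an upper bound of at most 7, and 177 of the 180 lines (98.3%) contained at least 1 of them. The share of such lines in the whole pool was not counted, so these shares are not shown to be particular to the locus. Lines with many introns have more occasions to contain a low one. In the pool the median line score was 4 for BROAD lines (median 2 exons) and 19 for WHITEHEAD lines (median 3 exons).

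**Figure D3:**
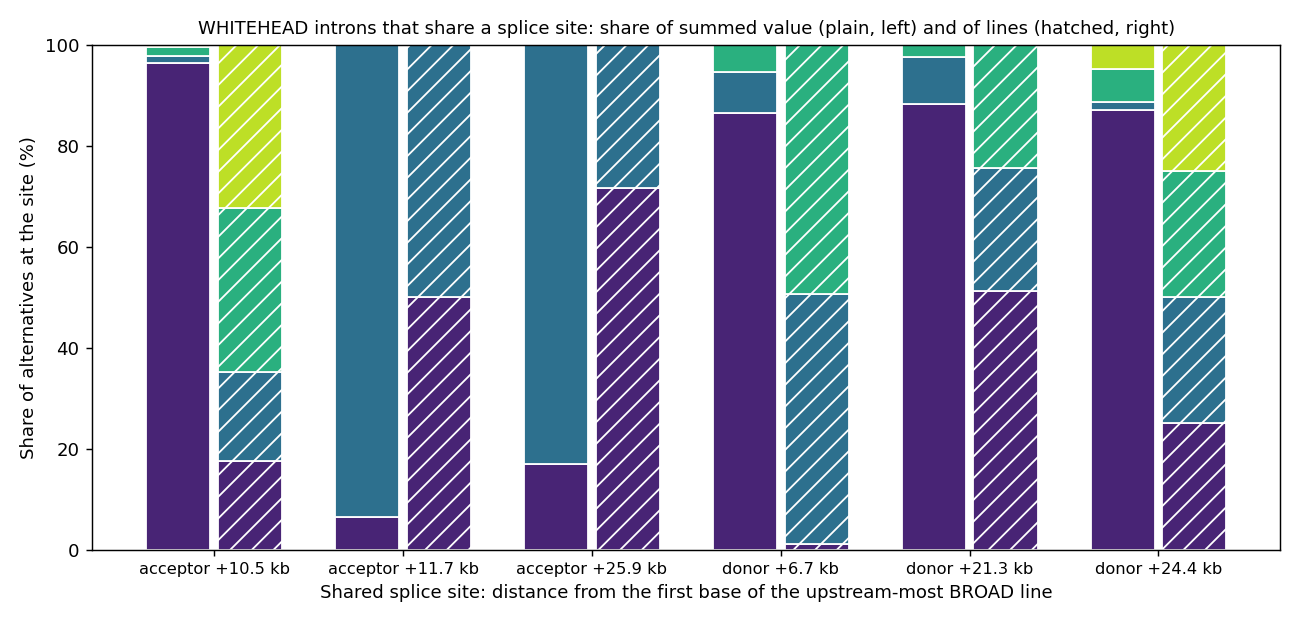
Share of the summed value (plain bars) and of the lines (hatched bars), in %, for WHITEHEAD introns that share an acceptor or a donor, at the 6 sites where all values are fixed and sum to at least 30. Colours stand for the introns of 1 site in order of position; at the first acceptor the first intron has 96.4% of the value and 17.6% of the lines.

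In WHITEHEAD lines the introns present in the most lines were, for the most part, not those with the highest values. For BROAD lines this can be said only in part, since most BROAD values are not fixed. The 817-bp intron was in the most BROAD lines, 144, with a value of at most 70. The 171-bp intron was in 131 BROAD lines with a value between 0 and 619. The 674-bp intron, with 552, was in 126 BROAD lines. Numbers of lines given next are over all prefixes. The 817-bp intron (98269383 to 98270199) was in 688 lines, with a value between 0 and 57 in WHITEHEAD and between 0 and 70 in BROAD lines. The 1454-bp intron (98272394 to 98273847) was in 382 lines, with 81 to 95 in WHITEHEAD and 0 to 88 in BROAD lines. The 110-bp intron (98269113 to 98269222) was in 344 lines, with 11 to 68 in WHITEHEAD and 4 in BROAD lines. The 674-bp intron, with the highest fixed plus-strand BROAD value, was in 336 lines. The 1078-bp intron (98271166 to 98272243) was in 321 lines, 320 of them WHITEHEAD and 1 a U line, with 4 to 18. The 198-bp and 148-bp introns (98269113 to 98269310 and 98273700 to 98273847) were in 272 and 262 lines, all WHITEHEAD, and the 4481-bp and 4491-bp introns in 236 each.

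Scores of the locus differed in range between the prefixes. WHITEHEAD scores ran from 1 to 963 (median 211) and BROAD scores from 4 to 1418 (median 1285.5). In the whole pool the medians were 19 for WHITEHEAD and 4 for BROAD lines. By start, the 131 BROAD lines from 98252637 had a median of 1320 and the 42 lines from 98264353 a median of 145. WHITEHEAD lines from 98252791 had a median of 472. Those from the next 3 starts (98253235, 98258934 and 98260708) had medians of 213.5, 211 and 216, and highest scores of 563, 562 and 564. Lines from 98264353 and 98265415 had close medians, 183 and 197, but lower highest scores, 293 and 344. Since each score is a sum of intron values, these medians add no evidence beyond the values themselves. The highest score of the locus ranked 10 among WHITEHEAD and 8 among BROAD lines of the pool. Comparisons of scores with the pool set sums of many introns against sums of few. Lines of the locus had medians of 8 (WHITEHEAD) and 11 (BROAD) exons, against 3 and 2 in the pool.

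**Figure D4:**
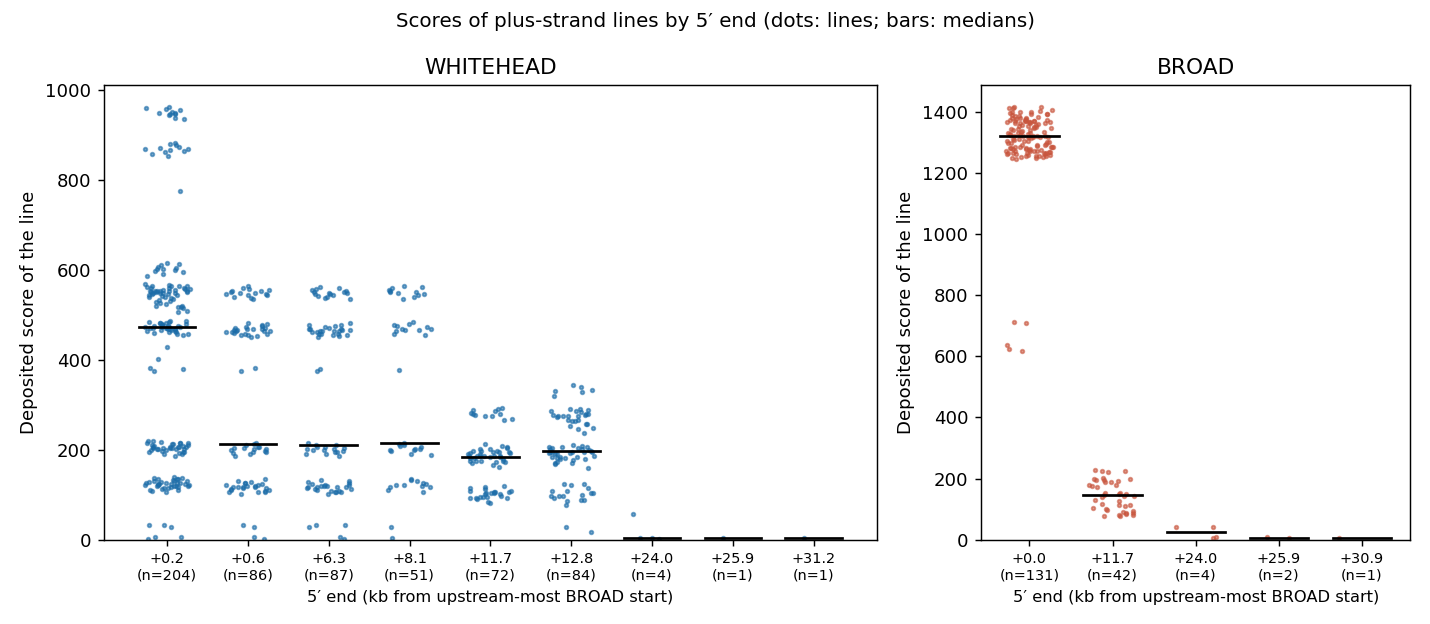
Deposited score of each plus-strand line (dots) by its 5′ end, in kb from position 98252637, with the number of lines and their median (bars), for WHITEHEAD (left) and BROAD (right) lines on separate axes. BROAD lines from the upstream-most start have a median of 1320 and those from 98264353 a median of 145; WHITEHEAD scores fall into bands at the 6 starts with more than 50 lines.

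The U and FT lines gave a sparser view of the same locus. Besides the 2 lines from the distal start, a U line joined 98263412 to 98263685 to the Lncenc1 last exon by the 674-bp intron, and another used the 1078-bp intron. Of the 7 single-exon U lines, 5 lay inside an exon of WHITEHEAD or BROAD lines. A U line and the FT line had the same position, 98281455 to 98283195 (1741 nt).

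Opposite-strand lines overlapped the locus or lay within 2 kb of it. There were 39, of which 23 were BROAD, 10 WHITEHEAD and 6 U lines, and 33 were spliced. None of them matched an annotated gene of the minus strand by an intron length together with a neighbouring exon length. The largest set faced the main BROAD start. All 20 BROAD minus-strand lines that began at 98252583 had their 5′ end 54 bp from the plus-strand BROAD start at 98252637, where 131 lines began, an arrangement with facing starts like that of divergent transcription named in the title of the series. These minus-strand lines had up to 6 exons and reached 98225758. Next to their start 10 of these lines had a 283-bp intron (98252211 to 98252493), with a value between 18 and 25, and the other 10 a 203-bp intron (98252211 to 98252413), with a value between 0 and 7. At the distal Lncenc1 start the facing minus-strand BROAD line lay 745 bp away and had a score of 2.

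Other opposite-strand lines had edges at the same bases as plus-strand exons. Of the 8 distinct 5′ ends of spliced minus-strand lines, 6 coincided to the base with the end of a plus-strand exon (98254063, 98256073, 98264551, 98265408, 98269112 and 98269382). Of their 10 distinct 3′ ends, 3 coincided with the start of a plus-strand exon. Conversely, the plus-strand starts 98253235 (86 lines) and 98264353 (114 lines) coincided with the start of a minus-strand exon, and the plus-strand ends 98263678 (12 lines) and 98265408 (18 lines) with the end of one. Counting WHITEHEAD and BROAD lines only, 2 of the 13 starts of the locus (15.4%) coincided with an exon edge of the other strand in this way. In the pool 84 of 6920 starts did (1.21%). The pool starts were not limited to those with an opposite-strand exon nearby, whereas this locus has 33 spliced opposite-strand lines. The 2 shares are therefore not like for like. A minus-strand 5′ end at 98265408 lay 7 bp from the plus-strand start at 98265415, the shortest distance between facing 5′ ends in the locus.

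The 674-bp plus-strand intron had a counterpart on the other strand. A 674-bp minus-strand intron (98263679 to 98264352) lay 7 bp upstream, in plus-strand direction, of the 674-bp plus-strand intron (98263686 to 98264359). In 2 BROAD lines it had a value of 1026, against 552 for the plus-strand intron in BROAD lines. In 6 WHITEHEAD lines it had a value of 34, against 374 for the plus-strand intron in WHITEHEAD lines. The order of the strands thus differed between the prefixes. Among the 4207 distinct plus-strand introns of WHITEHEAD and BROAD lines in the pool, 10 (0.238%) had a minus-strand intron of the same length shifted by 1 to 20 bp, and for 2 the shift was 7 bp. The sequence around these introns was not used here, since no mm9 genome was used.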

How the data were processed

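RNA was from V6.5 cells, per the labels, in 2 strand-specific libraries (dUTP in the second strand). TopHat and mm9 are named, per the submitters' processing notes. Versions, the transcript assembler and filters are not given in the sources used here. A single BED list was deposited for the series, and its score column holds whole numbers deposited by the authors with no stated unit. Exon blocks less than 30 bp apart were merged, which affected 2 U lines. Positions are 1-based. Scores were solved by least squares as sums of 1 value per intron, and the ranges of values not fixed came from linear programming with values of at least 0 (Python 3.11.15, numpy 2.4.6, SciPy 1.17.1). The solving steps were tested on simulated scores. A match to GENCODE M21 by runs of intron, exon and intron lengths, and its longer form, gave 0 matches, so an intron length with 1 neighbouring exon length was used instead, a rule chosen after seeing the data. No test was made. The annotation is of another build, and no conversion between builds was run. The mm9 positions given for annotated features are those of the pool introns and exons matched to them by length. Named introns, ends and chains were the most frequent, and others were named after their values were seen. The region and the lists were chosen with earlier results of these data known. Depth is unknown.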

Additional observations from a re-analysis of the deposited data

How the results depend on the processing

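Of 31 comparisons of a value with its alternative, 27 stayed within 1.5 times, or unchanged for median scores, and 4 moved. Distinct introns numbered 43, and 40 to 44 when blocks were left as deposited, gaps under 70 bp were joined, introns within 10 bp were counted as 1, or only introns in 2 or more lines were kept. Introns shared by WHITEHEAD and BROAD lines numbered 11, and 10 or 11 under the alternatives. Distinct chains numbered 704, and 184 without WHITEHEAD names, 524 without BROAD names and 552 when chains contained in longer ones were dropped. The share of the pool in the locus moved from lines to distinct introns, 17.6% and 1.20% for WHITEHEAD names and 2.34% and 0.312% for BROAD names. The median WHITEHEAD score was 210.5 over distinct chains and 211 over lines. Alternatives for the 18 splice sites with several partners were added after seeing the data and gave 13 to 18. No paired analysis was possible because the list has no value per library and each kind of RNA has 1 library.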
